A study of Homo sapiens with 6 samples.

Results

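The interferon system was examined through 59 genes, comprising interferon receptors, sensors of foreign nucleic acid, transcription factors of the response and interferon-stimulated effectors. They were picked from the deposited table by gene name, and all 59 were found among its 35856 genes. RNA sequencing covered HCCLM3, an established human hepatocellular carcinoma cell line, in 2 groups of 3 libraries. One group had been transfected with a vector carrying the long non-coding RNA LINC00862 and the other, named Empty here and NC in the labels, with an empty vector, so both groups received a plasmid. The study asked which genes respond when LINC00862 is raised in hepatoma cells. The labels do not say whether the 3 libraries of a group came from separate cultures, so the p-values measure the spread between these libraries, which may be technical.

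LINC00862 itself had 0.0425, 0.0884 and 0.0214 FPKM in the Empty libraries and 0.530, 0.506 and 0.312 FPKM in the LINC00862 libraries, where FPKM is the fragment count scaled to transcript length and to the mapped fragments of the library. All LINC00862 libraries stood above all Empty libraries, with a fitted log2 fold change of 3.22 ± 0.53 (SE), or 3.83 without Empty replicate 2. The exact two-sided permutation test of its FPKM gave p = 0.1, the smallest that 3 libraries against 3 allow. Total counts per library ranged from 58241123 to 68229070, and the 10 most abundant genes took 8.42% to 11.7% of them in Empty and 19.4% to 29.2% in LINC00862.

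The label of a hepatoma line was checked against hepatocyte and hepatoma genes. In Empty, albumin (ALB) and the liver regulator HNF4A were each listed at 0 in 2 libraries, and at 0.0234 and 0.0071 FPKM in the other. In LINC00862, ALB had 1.61, 1.71 and 1.21 FPKM, while HNF4A was low, at 0.059, 0.048 and 0.027 FPKM. With at most 34 counts in a library, HNF4A was called higher, with a log2 fold change of 4.095 ± 1.058. APOA1 was listed at 0 in 2 libraries of each group. SERPINA1 averaged 1.285 FPKM in Empty and 0.095 FPKM in LINC00862. HNF4A and APOA1 were thus at or near 0 in both groups. Others were near 0 in Empty only. TF averaged 0.037 FPKM in Empty and 15.5 FPKM in LINC00862, TTR 0 and 0.464 FPKM, and APOB 0.0018 and 0.144 FPKM. The 9 marker genes summed to 3.05 to 3.599 FPKM in Empty and to 539 to 618 FPKM in LINC00862. Of the 8 that were tested, 6 were higher and 2, SERPINA1 and AFP, were lower in LINC00862. The fibrinogen chain FGB alone averaged 1.75 FPKM in Empty and 550.4 FPKM in LINC00862. Leukocyte markers summed to 6.95 to 8.23 FPKM in Empty and 11.7 to 18.0 FPKM in LINC00862, with 2 of 8 higher (CD14 and CD68) and 6 not called. PTPRC, the pan-leukocyte marker, averaged 0.283 and 0.198 FPKM, and none of the 8 had a group mean of 0. Fibroblast markers summed to 7.44 to 8.61 and 11.8 to 15.7 FPKM, with COL1A1 and LUM higher, PDGFRB lower and 3 of 6 not called. Of the tested hepatocyte, leukocyte and fibroblast markers, 75%, 25% and 33.3% were higher and 25%, 0% and 16.7% lower. Among all genes tested, 34.4% were higher and 29.8% lower. Across genes, the Spearman correlation of FPKM was 0.896 to 0.909 between libraries of one group and 0.754 to 0.767 between libraries of different groups. The part of these shifts in the interferon results was not tested, and a response to LINC00862 and a prior difference between the cells of the groups cannot be told apart. In bulk libraries, fewer cells of a type and less RNA per cell cannot be told apart.

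Cells detect viral RNA or DNA with sensors such as RIG-I, MDA5, TLR3 and cGAS, which lead through adaptors and IRF factors to the release of interferons. Secreted interferons bind their receptors and activate a complex that includes STAT2 and IRF9, which binds the interferon-stimulated response element (ISRE) in the promoters of antiviral genes. Interferon gamma acts through the gamma-activated site (GAS). Hepatocytes carry receptors for both classes and are a known site of viral infection in which these genes act.

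Promoters of members were searched for both elements to show how far the set shares them. RefSeq windows (GRCh38.p14) running from 250 bases before to 50 bases after a start were found for 46 of the 59 members, 14 of which have several windows. The ISRE was written GAAANNGAAA and searched on both strands, and the GAS was written TTCNNNGAA, which reads the same on both strands. At least one window held the ISRE in 28 of 46 members (60.9%), against 1195 of the 27305 genes with RefSeq promoter windows (4.38%). The GAS letters were found in 13 of 46 members (28.3%) and in 9.38% of all genes with such windows. Both motifs occurred in 9 members, and they overlapped in 4. The ISRE was present in 26 of 35 effectors and in 2 of 11 receptors, sensors and transcription factors, namely IFIH1 and TLR3. A match is a description of letters and not of binding, and genes with several windows have more room for one. The 250 bases before the start are printed for 2 members that fell, 1 that rose and 1 that was not called, with the ISRE letters in capitals on either strand.
HERC5 promoter (fell), plus strand of chr4:88456869-88457118: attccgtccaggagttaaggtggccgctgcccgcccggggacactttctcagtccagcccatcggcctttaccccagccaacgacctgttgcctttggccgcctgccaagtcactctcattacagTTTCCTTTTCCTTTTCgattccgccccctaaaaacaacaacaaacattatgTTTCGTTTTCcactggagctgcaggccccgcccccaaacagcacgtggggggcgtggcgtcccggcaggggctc
GBP1 promoter (fell), minus strand of chr1:89065209-89065458: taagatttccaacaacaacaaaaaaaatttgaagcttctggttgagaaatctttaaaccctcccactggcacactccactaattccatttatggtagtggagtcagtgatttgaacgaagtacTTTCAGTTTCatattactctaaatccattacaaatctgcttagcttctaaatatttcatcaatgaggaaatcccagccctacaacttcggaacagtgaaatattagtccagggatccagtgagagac
BST2 promoter (rose), minus strand of chr19:17405631-17405880: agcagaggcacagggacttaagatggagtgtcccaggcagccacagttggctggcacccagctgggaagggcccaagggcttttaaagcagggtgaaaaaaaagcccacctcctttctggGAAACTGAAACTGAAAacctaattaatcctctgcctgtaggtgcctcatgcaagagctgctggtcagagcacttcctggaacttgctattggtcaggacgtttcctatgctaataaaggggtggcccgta
IFITM3 promoter (not called), minus strand of chr11:320861-321110: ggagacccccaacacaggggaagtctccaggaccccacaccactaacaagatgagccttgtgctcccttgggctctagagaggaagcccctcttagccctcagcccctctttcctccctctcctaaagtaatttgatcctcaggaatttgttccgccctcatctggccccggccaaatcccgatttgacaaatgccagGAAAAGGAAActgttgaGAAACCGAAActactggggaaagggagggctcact
HERC5 holds 3 ISRE matches, 2 of which share bases in one run of capitals, and BST2 holds 2 that share bases, while GBP1 has a single match and IFITM3 has 2 apart from each other. By the fitted call, 15 of 24 members that were lower held the ISRE, as did 6 of 10 that were higher and 7 of 12 that were not called. The GAS letters were found in 5 of 24 lower, 7 of 10 higher and 1 of 12 not called members. Those 7 include OAS1, PLSCR1 and IRF9, whose calls were lost in some alternative fits. GBP2, with the largest rise, had no matched window. Whether the share with GAS differs by call was not tested.

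Most members that changed were lower with LINC00862. Of the 59 members, all of which passed the filter on low counts, 32 were lower, 11 were higher and 16 were not called by edgeR's quasi-likelihood test at an adjusted p under 0.05. Among all 20741 genes tested, 64.2% were called, 29.8% lower and 34.4% higher. The members' share lower was 54.2% and their share higher was 18.6%. At a change of at least 2-fold, 28 members were lower and 6 were higher, against 20.9% and 28.9% of all genes. The FPKM of the groups did not overlap for 35 members that were lower and 11 that were higher, while 36.6% and 34.4% of all tested genes were apart in these directions. The median fitted log2 fold change was -0.83 over the members and 0.11 over all genes. With upper quartile scaling the median of all genes moved to 0.32 and with library size alone to -0.05, and the members shifted with it. The median of the members minus that of all genes was -0.95 in the reported fit, -0.53 with limma-trend on log2(FPKM + 1) and -1.23 with DESeq2 over every gene with a count. The median absolute log2 fold change was 1.17 over the members and 1.16 over all genes.

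**Figure D1:**
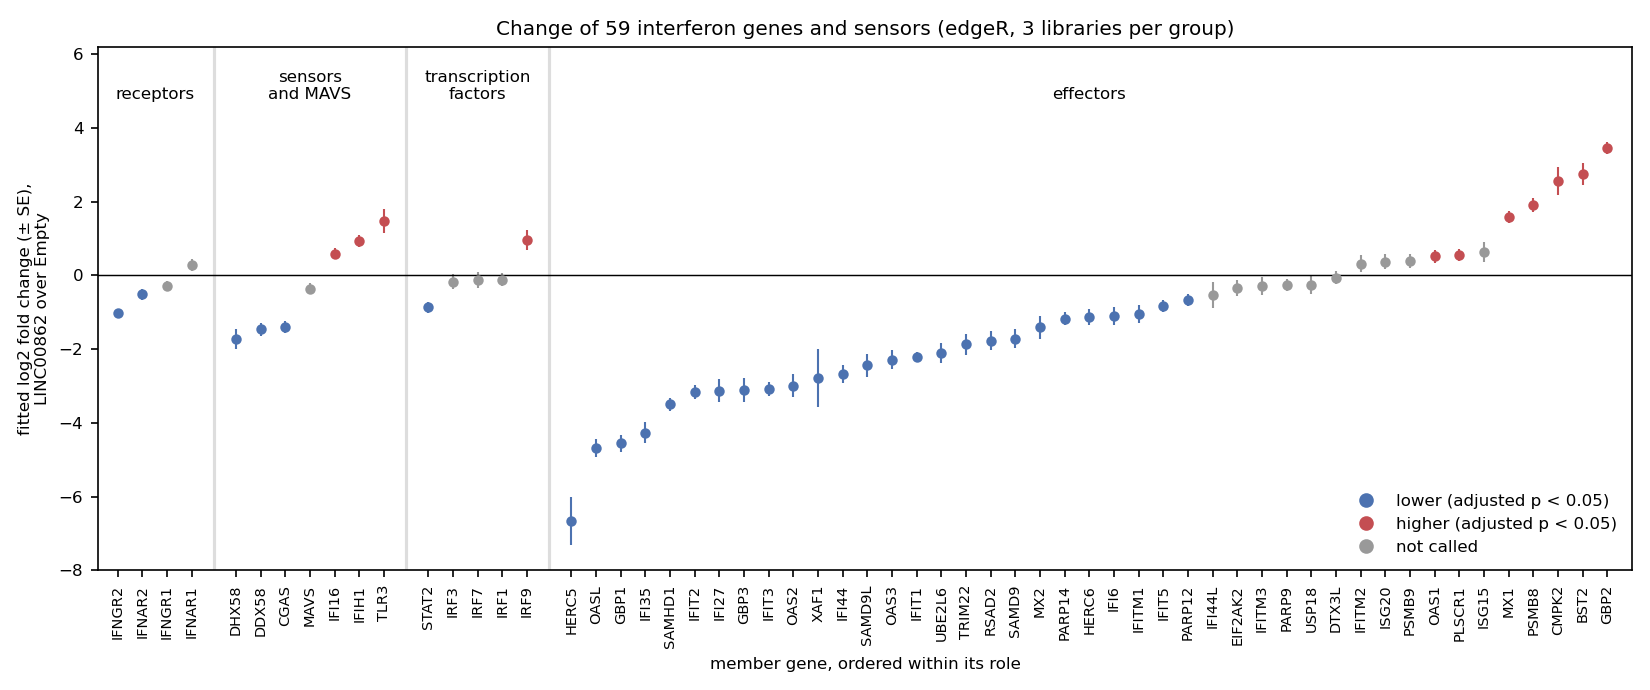
Fitted log2 fold change (LINC00862 over Empty, y axis) with its standard error for each of the 59 members (x axis), grouped by role and coloured by call at an adjusted p under 0.05. Effectors run from -6.66 for HERC5 to 3.46 for GBP2, while receptors stay between -1.03 and 0.29.

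Calls were also counted by role, beside 29.8% lower and 34.4% higher among all genes tested. Of the 43 effectors, 26 were lower (60.5%), 7 higher (16.3%) and 10 not called, with a median log2 fold change of -1.12. The 11 sensors and receptors held 5 lower (45.5%), 3 higher (27.3%) and 3 not called genes, with a median of -0.36. Whether effectors differ from sensors and receptors was not tested. Every library of Empty had a higher median FPKM over the effectors (3.47 to 5.26) than any LINC00862 library (1.36 to 1.60). The summed FPKM of all members overlapped between groups, at 754 to 1058 in Empty and 766 to 928 in LINC00862. IFITM2, IFITM3 and ISG15, none of them called, supplied 43.6% to 59.5% of this sum in every library. Among the 10 members of highest mean FPKM, 3 were lower, 3 higher and 4 not called. These shares, 30% each, were near the 29.8% and 34.4% of all genes tested.

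**Figure D2:**
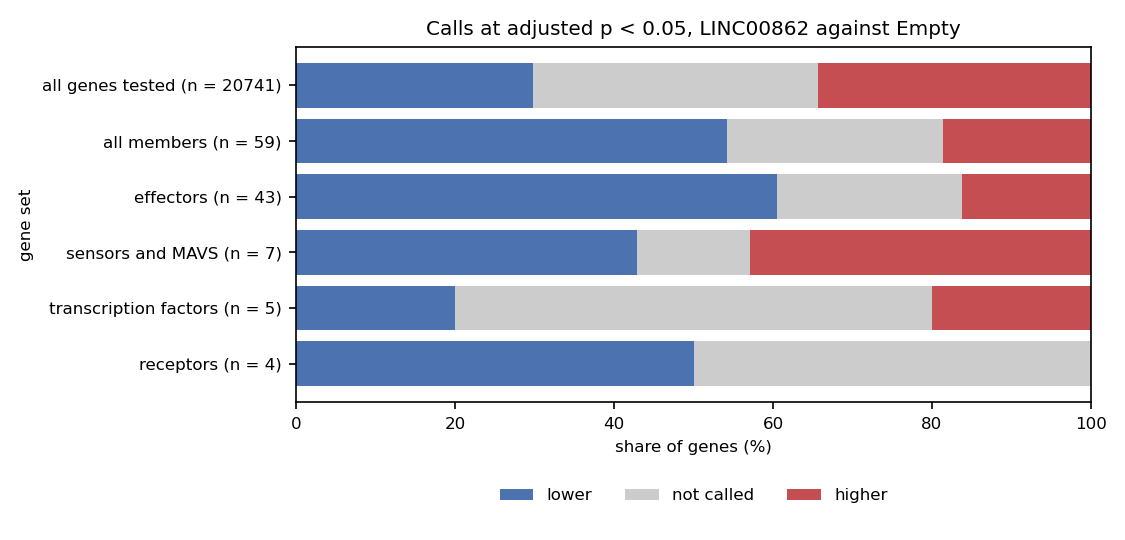
Share of genes (x axis, percent) called lower, not called and called higher at an adjusted p under 0.05, for all 20741 genes tested and for the members by role (y axis). The lower share is 29.8% for all genes and 54.2% for the members, and the 43 effectors hold 26 lower genes.

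Among the 4 receptors, both genes called were lower, a share of 50% against 29.8% of all genes tested. IFNGR2, the signalling chain of the interferon gamma receptor, had 17.8, 16.9 and 15.7 FPKM in Empty and 7.31, 7.93 and 6.64 FPKM in LINC00862. Its groups lay well apart, and the log2 fold change was -1.03 ± 0.13 (SE, adjusted p = 0.000126). A gene on the opposite strand, TMEM50B, overlaps IFNGR2, and whether counting used the strand is not given in the sources used here. IFNAR2, a chain of the receptor for interferon alpha and beta, had 5.03, 5.01 and 4.64 FPKM in Empty and 2.99, 3.10 and 3.00 FPKM in LINC00862. The change of -0.51 ± 0.14 lost its call with upper quartile scaling (adjusted p = 0.0987) and without LINC00862 replicate 1 (adjusted p = 0.0577) or replicate 2 (adjusted p = 0.0500333, edgeR's quasi-likelihood test). The partner chain IFNAR1 had 9.60, 6.36 and 6.78 FPKM in Empty and 8.53, 9.35 and 6.69 FPKM in LINC00862, so its groups overlapped and its log2 fold change of 0.29 ± 0.16 was not called. IFNGR1, which binds interferon gamma, had 7.99, 6.67 and 6.38 FPKM in Empty and 5.04, 5.72 and 4.61 FPKM in LINC00862. These values were apart, but the change of -0.28 ± 0.14 did not pass the test (adjusted p = 0.111).

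Of the 7 sensors and adaptors, 3 were lower and 3 higher, or 42.9% each. Among all genes tested, 29.8% were lower and 34.4% higher. The RIG-I gene DDX58, which recognises RNA with a 5′ triphosphate, had 8.42, 6.22 and 6.22 FPKM in Empty and 2.65, 2.38 and 1.67 FPKM in LINC00862. Its relative IFIH1, which encodes the long-RNA sensor MDA5, had 4.24, 3.11 and 2.55 FPKM in Empty and 5.58, 6.02 and 5.08 FPKM in LINC00862. Neither gene overlapped between the groups, and the log2 fold changes were -1.47 ± 0.18 for DDX58 (adjusted p = 0.000113) and 0.94 ± 0.17 for IFIH1 (adjusted p = 0.00116). Per length, IFIH1 stood at 0.410 to 0.503 of DDX58 in every Empty library and at 2.11 to 3.04 of it in every LINC00862 library, a ratio chosen after the values were seen. DHX58, which encodes the third helicase of the family, LGP2, had 1.29, 1.43 and 1.34 FPKM in Empty and 0.291, 0.417 and 0.373 FPKM in LINC00862, a change of -1.72 ± 0.27.

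CGAS, the sensor of cytosolic DNA that makes the messenger cGAMP, had 4.64, 3.97 and 4.39 FPKM in Empty and 1.303, 1.61 and 1.45 FPKM in LINC00862. All Empty libraries were above all LINC00862 libraries, and the log2 fold change was -1.40 ± 0.17 (adjusted p = 0.000113). IFI16, a nuclear DNA-binding protein, went the other way, from 16.3, 13.1 and 11.4 FPKM to 19.4, 17.7 and 17.2 FPKM. Its change of 0.59 ± 0.14 lost the call when libraries were scaled by size alone (adjusted p = 0.0514). TLR3, the endosomal receptor for double-stranded RNA, was near the lower end of the set, with 0.143, 0.119 and 0.0934 FPKM in Empty and 0.332, 0.258 and 0.278 FPKM in LINC00862, a change of 1.47 ± 0.33. MAVS, the mitochondrial adaptor shared by RIG-I and MDA5, had 11.7, 8.00 and 9.24 FPKM in Empty and 7.10, 7.00 and 5.83 FPKM in LINC00862. Its groups were apart, and the change of -0.36 ± 0.15 missed the threshold (adjusted p = 0.0578).

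Of the 5 transcription factors, STAT2 fell and IRF9 rose, 20% each, against 29.8% lower and 34.4% higher among all genes tested. STAT2, which carries the activation domain of the ISRE-binding complex, had 14.2, 11.5 and 9.58 FPKM in Empty and 5.28, 6.67 and 5.17 FPKM in LINC00862, a log2 fold change of -0.86 ± 0.16 (adjusted p = 0.00113). IRF9, the DNA-binding part of that complex, had 3.53, 3.82 and 2.08 FPKM in Empty and 3.98, 5.62 and 6.48 FPKM in LINC00862. The groups of IRF9 were apart by a small gap, and its change of 0.95 ± 0.27 lost the call without LINC00862 replicate 3 (adjusted p = 0.0628). The gene AL136295 overlaps IRF9 on the same strand and had more counts in both groups, so the split of reads between them is uncertain.

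The 3 other IRF genes overlapped between the groups. IRF3, the factor activated by the sensors, had 13.8, 17.0 and 21.1 FPKM in Empty and 13.8, 15.4 and 12.3 FPKM in LINC00862. IRF7, the factor that amplifies interferon alpha production, had 4.06, 5.61 and 5.68 FPKM in Empty and 4.55, 4.40 and 3.66 FPKM in LINC00862. IRF1, a target of the gamma response, had 4.62, 4.19 and 5.09 FPKM in Empty and 4.40, 4.21 and 2.85 FPKM in LINC00862. Their log2 fold changes of -0.16 ± 0.20, -0.13 ± 0.21 and -0.12 ± 0.17 were not called and turned positive under upper quartile scaling.

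**Figure D3:**
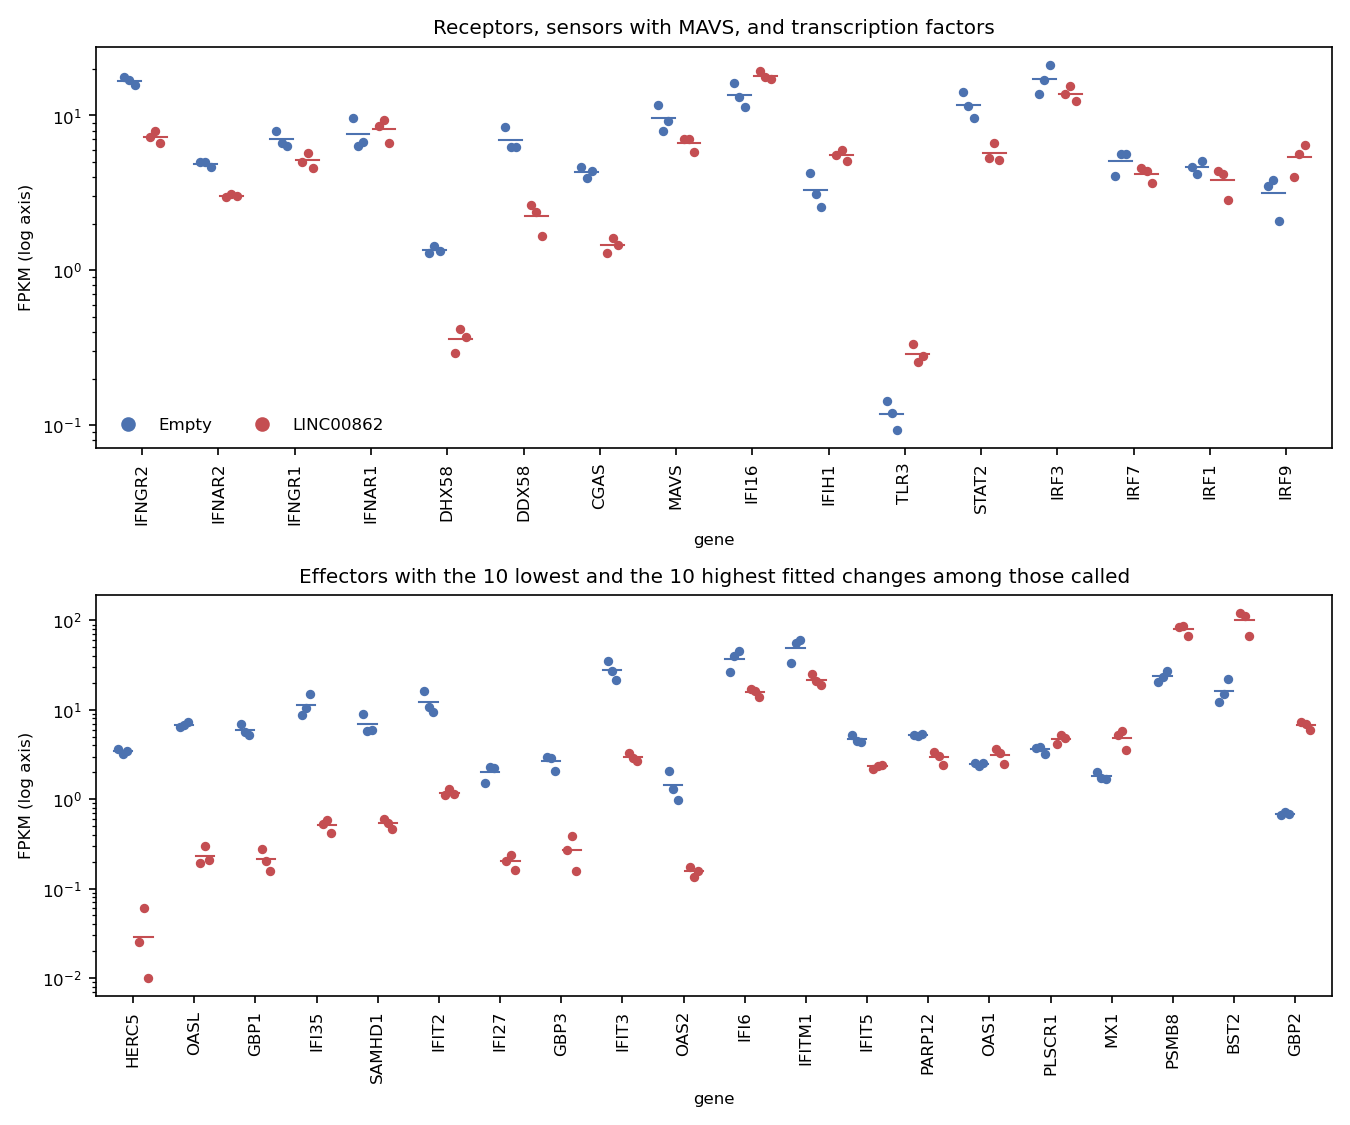
FPKM per library (log axis, dots) with the group mean (line) for Empty and LINC00862; a library listed at 0 is drawn at 0.01. The upper panel holds the receptors, the sensors with MAVS and the transcription factors, and the lower panel the effectors with the 10 lowest and 10 highest fitted changes among those called, from HERC5 (3.44 against 0.0288 FPKM on average) to GBP2 (0.689 against 6.74 FPKM).

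RNA-binding and RNA-degrading effectors were mostly lower, at 7 of 10, with 1 higher and 2 not called and a median log2 fold change of -2.25. These shares, 70% lower and 10% higher, stand beside 29.8% and 34.4% of all genes tested. The IFIT proteins, which bind viral RNA ends and block its translation, were lower in all 4 genes measured. IFIT3 had 35.1, 27.5 and 21.7 FPKM in Empty and 3.26, 2.87 and 2.66 FPKM in LINC00862. IFIT2 had 16.1, 10.7 and 9.53 FPKM in Empty and 1.11, 1.29 and 1.16 FPKM in LINC00862. Both fell, with log2 fold changes of -3.07 ± 0.18 and -3.16 ± 0.20. IFIT1 changed by -2.21 ± 0.14, from a mean of 13.8 to 2.64 FPKM. IFIT5 had 5.26, 4.51 and 4.35 FPKM in Empty and 2.19, 2.35 and 2.44 FPKM in LINC00862, and its change of -0.83 ± 0.16 was the smallest of the family. The lipase gene LIPA lies on the opposite strand across IFIT1, IFIT2 and IFIT3. Its summed counts were 20661 in Empty and 11791 in LINC00862.

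In the OAS family, whose members make short chains of linked adenylates on sensing double-stranded RNA, 3 genes fell and 1 rose. OASL, the relative without synthase activity that supports RIG-I, had 6.41, 6.73 and 7.23 FPKM in Empty and 0.194, 0.2995 and 0.209 FPKM in LINC00862. Its log2 fold change was -4.68 ± 0.24 (adjusted p = 4.51e-07). OAS2 had 2.09, 1.29 and 0.981 FPKM in Empty and 0.176, 0.136 and 0.155 FPKM in LINC00862, a change of -2.99 ± 0.31, and OAS3 changed by -2.29 ± 0.26. OAS1 had 2.51, 2.34 and 2.53 FPKM in Empty and 3.67, 3.31 and 2.46 FPKM in LINC00862. The groups of OAS1 overlapped in FPKM, and its call as higher (0.52 ± 0.18, adjusted p = 0.0273) was lost in 9 of 14 alternatives, including the replicate block (adjusted p = 0.0821). The kinase PKR gene EIF2AK2 (-0.34 ± 0.21) and the exonuclease gene ISG20 (0.37 ± 0.20) were not called.

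The ISGylation group, which attaches the ubiquitin-like protein ISG15 to other proteins, held 3 lower genes and 2 that were not called. Its share lower was 60%, against 29.8% of all genes tested. HERC5 (ENSG00000138646), the main ligase for ISG15, lies on chromosome 4 and had 3.62, 3.21 and 3.47 FPKM in Empty against 0.0255, 0.0610 and 0 FPKM in LINC00862. In counts these were 1144, 999 and 1104 against 10, 20 and 0, and the fitted log2 fold change of -6.66 ± 0.66 was the lowest of the 59 members and moved to -7.67 without LINC00862 replicate 2. UBE2L6, the conjugating enzyme of the same pathway, fell by 2.10 ± 0.27, and HERC6, the neighbour of HERC5, fell by 1.12 ± 0.22. ISG15 itself had 86.3, 142 and 177 FPKM in Empty and 203, 177 and 188 FPKM in LINC00862. Its groups were close but apart, and the change of 0.64 ± 0.27 was not called (adjusted p = 0.0613). It was called higher with the replicate block (adjusted p = 0.0456), with upper quartile scaling, with DESeq2 and without Empty replicate 3. The deconjugating protease USP18 overlapped between the groups, with a change of -0.26 ± 0.24. Values of ISG15, UBE2L6, HERC6 and USP18 were singled out after they were seen.

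Membrane proteins and GTPases that restrict virus entry and release held 4 lower, 3 higher and 2 not called genes. These shares, 44.4% lower and 33.3% higher, stand beside 29.8% and 34.4% of all genes tested. BST2, or tetherin, which holds budding virus at the cell surface, had 12.1, 15.1 and 22.0 FPKM in Empty and 120, 114 and 67.6 FPKM in LINC00862. The lowest LINC00862 library stood well above the highest Empty library, and the log2 fold change was 2.76 ± 0.29 (adjusted p = 3.98e-05). IFITM1, which blocks fusion of virus with the membrane, had 33.6, 55.3 and 60.1 FPKM in Empty and 24.9, 21.03 and 19.0 FPKM in LINC00862, a change of -1.04 ± 0.25. Its relatives IFITM2 and IFITM3 were not called, with changes of 0.32 ± 0.24 and -0.29 ± 0.24, and IFITM3 was the most abundant member in Empty, at 278 ± 83.6 FPKM (SD, n = 3). The annotated IFITM1 and IFITM2 genes share 1767 bases on the same strand, so the split of reads among the family is uncertain.

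Among the guanylate-binding proteins, GTPases of the gamma response, GBP1 and GBP3 fell and GBP2 rose. GBP1 (ENSG00000117228) had 6.89, 5.65 and 5.18 FPKM in Empty and 0.279, 0.203 and 0.158 FPKM in LINC00862, a log2 fold change of -4.55 ± 0.23. GBP3 had 2.99, 2.87 and 2.07 FPKM in Empty and 0.271, 0.387 and 0.156 FPKM in LINC00862, a change of -3.10 ± 0.32. GBP2 (ENSG00000162645) had 0.673, 0.713 and 0.682 FPKM in Empty and 7.29, 7.01 and 5.94 FPKM in LINC00862, a change of 3.46 ± 0.15 (adjusted p = 2.45e-07). In each of the 3 genes all libraries of one group lay on the same side of the other group. MX1, a dynamin-like GTPase that traps viral nucleocapsids, had 2.00, 1.73 and 1.70 FPKM in Empty and 5.21, 5.82 and 3.59 FPKM in LINC00862, a change of 1.59 ± 0.17, while its relative MX2, below 1 FPKM in both groups, changed by -1.41 ± 0.32. The counts of these paralogous genes may share reads where their sequences are alike.

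All 5 nucleotide and SAM-domain genes were called, 4 lower (80%) and 1 higher (20%), against 29.8% and 34.4% of all genes tested. SAMHD1, which depletes the deoxynucleotides that viruses need, had 8.94, 5.85 and 5.99 FPKM in Empty and 0.592, 0.546 and 0.466 FPKM in LINC00862, a log2 fold change of -3.50 ± 0.18. SAMD9L, SAMD9 and RSAD2 fell, with changes of -2.44 ± 0.32, -1.72 ± 0.26 and -1.77 ± 0.26. CMPK2, a mitochondrial nucleotide kinase, rose by 2.56 ± 0.38 from a low level, at 0.215, 0.236 and 0.0960 FPKM in Empty and 0.843, 1.10 and 0.953 FPKM in LINC00862, and was singled out after its values were seen.

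The immunoproteasome genes, which shape peptides for antigen presentation, were represented by PSMB8 and PSMB9. PSMB8 had 20.4, 23.4 and 27.3 FPKM in Empty and 85.5, 87.2 and 66.7 FPKM in LINC00862, a change of 1.91 ± 0.18 (adjusted p = 2.02e-05). PSMB9 overlapped between the groups, with a change of 0.39 ± 0.20, and stood at 0.341 to 0.412 of PSMB8 in Empty and 0.132 to 0.135 of it in LINC00862. PSMB8, PSMB9, TAP1 and PSMB8-AS1 overlap in the annotation, partly on opposite strands.

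Of the other interferon-induced proteins, 5 were lower (71.4%), 1 higher (14.3%) and 1 not called. All genes tested had shares of 29.8% and 34.4%. IFI35, a cytosolic protein of the interferon response, had 8.83, 10.4 and 15.0 FPKM in Empty and 0.522, 0.592 and 0.420 FPKM in LINC00862, a log2 fold change of -4.27 ± 0.29. IFI27, a small mitochondrial protein, had 1.52, 2.32 and 2.21 FPKM in Empty and 0.206, 0.239 and 0.160 FPKM in LINC00862, a change of -3.12 ± 0.30. Its relative IFI6 stayed abundant, with 26.7, 39.8 and 45.8 FPKM in Empty and 16.9, 16.3 and 13.8 FPKM in LINC00862, a change of -1.10 ± 0.23. In all 3 genes the Empty libraries were above the LINC00862 libraries. IFI44 fell by 2.67 ± 0.25, XAF1, with a mean below 1 FPKM in both groups, fell by 2.78 ± 0.79 (-4.49 without LINC00862 replicate 3), and IFI44L was not called. PLSCR1, a scramblase that also restricts virus entry, had 3.74, 3.85 and 3.22 FPKM in Empty and 4.13, 5.26 and 4.78 FPKM in LINC00862. Its rise of 0.56 ± 0.16 was lost with library size scaling (adjusted p = 0.0652), with limma-trend on either FPKM scale and without LINC00862 replicate 2 (adjusted p = 0.056).

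The ADP-ribosyl and ubiquitin ligases held 3 lower genes (60%, against 29.8% of all genes tested) and 2 that were not called. PARP12, which blocks translation of viral RNA, had 5.19, 5.09 and 5.39 FPKM in Empty and 3.41, 3.00 and 2.42 FPKM in LINC00862, a log2 fold change of -0.66 ± 0.16. PARP14 and TRIM22 fell, with changes of -1.17 ± 0.18 and -1.87 ± 0.28. The partners PARP9 and DTX3L, which share a bidirectional promoter, had changes of -0.27 ± 0.17 and -0.06083 ± 0.18 and were not called. TRIM22 lies opposite TRIM5, whose summed counts were 2345 in Empty and 6654 in LINC00862.

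Several members are neighbours on the chromosome, a grouping made after the values were seen. With gaps of at most 150 kb, 31 members formed 12 clusters, and 4 of these held genes called in opposite directions. The locus on chromosome 12 counts through the higher call of OAS1, which 9 of 14 alternatives lost, and without it 3 loci remain. Among all genes tested, 29.8% were called lower and 34.4% higher. How often neighbouring genes elsewhere in the table were called in opposite directions was not counted. On chromosome 1 (hg38), GBP2 (chr1:89106132-89150456) lies beside GBP1 (chr1:89052319-89065230), and the FPKM ratio of GBP2 to GBP1 was 0.0977, 0.126 and 0.132 in Empty and 26.1, 34.5 and 37.6 in LINC00862. On chromosome 21, MX1 (chr21:41420304-41459214) follows MX2 (chr21:41361999-41409390), and the ratio of MX1 to MX2 was 5.996, 6.40 and 6.78 in Empty and 74.3, 66.0 and 29.8 in LINC00862. CMPK2 and RSAD2 are transcribed away from each other on chromosome 2 and overlap by 14 bases. Their ratio was 0.124, 0.163 and 0.0602 in Empty and 2.35, 1.98 and 2.85 in LINC00862. For OAS1 over OAS3 on chromosome 12 it was 0.302, 0.485 and 0.704 in Empty and 3.57, 3.32 and 2.58 in LINC00862. The 4 loci were picked by their opposite calls, and each ratio places the gene called higher over a gene called lower. With that choice, the ratio in every LINC00862 library was above that in every Empty library, which is not a separate result. By contrast, the 4 IFIT genes on chromosome 10 and the pairs HERC5 with HERC6 and SAMD9 with SAMD9L were lower throughout.

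**Figure D4:**
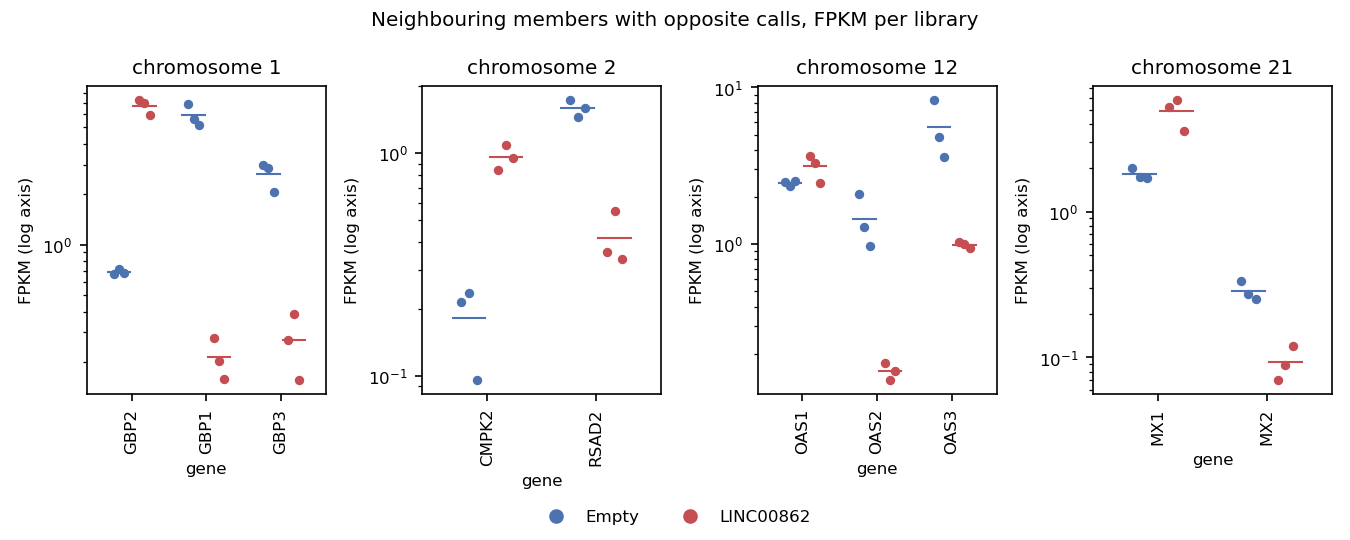
FPKM per library (log axis, dots) and group means (lines) of members that lie next to each other and were called in opposite directions, at 4 loci. GBP2, CMPK2, OAS1 and MX1 have higher means in LINC00862 than in Empty, while GBP1, GBP3, RSAD2, OAS2, OAS3 and MX2 have lower ones, and the libraries of OAS1 overlap.

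Interferon transcripts themselves were scarce. Of 21 interferon genes sought, 10 were in the table and the other 11 were not listed there by name. The filter was passed by 3, of which IFNB1 and IFNL1 were lower with LINC00862 and IFNE was not called. IFNB1, which encodes interferon beta, had 0.982, 1.299 and 1.18 FPKM in Empty and 0.116, 0.189 and 0 FPKM in LINC00862, or 55, 72 and 67 counts against 8, 11 and 0. Its log2 fold change was -3.28 ± 0.82 (adjusted p = 0.00643). IFNL1, which encodes the epithelial interferon lambda 1, had 39, 33 and 41 counts in Empty and 0 in every LINC00862 library, at least 13.1-fold lower after scaling to the total counts when 3 counts per library are taken as the floor. IFNL2 had 13, 0 and 16 counts and IFNL3 had 0, 8 and 0 counts in Empty, with 0 in LINC00862, and neither was tested. These near-identical genes may share reads. IFNE stood at 0.779 ± 0.183 FPKM (SD, n = 3) in Empty and 0.872 ± 0.310 FPKM in LINC00862. The untested genes IFNA1, IFNA2, IFNA13, IFNW1 and IFNG had at most 6 counts in any Empty library and at most 8 in any LINC00862 library, and all but IFNA1 had more counts in LINC00862.

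Other genes of sensing and signalling were listed to set the members in their pathway. Of 15 sensing genes tested, 2 were lower (13.3%), 5 higher (33.3%) and 8 not called, against 29.8% lower and 34.4% higher among all genes tested. STING1, the adaptor that receives the cGAMP signal, had 7.73, 8.20 and 9.04 FPKM in Empty and 0.175, 0.0940 and 0.104 FPKM in LINC00862, a log2 fold change of -5.83 ± 0.28 (adjusted p = 3.56e-07). MYD88, the adaptor of most Toll-like receptors, had 8.24, 7.26 and 5.91 FPKM in Empty and 1.67, 1.69 and 1.59 FPKM in LINC00862, a change of -1.93 ± 0.16. TBKBP1, RNF135 and TRAF6 were higher, by 1.56 ± 0.24, 1.53 ± 0.19 and 0.57 ± 0.21, and TANK by 0.49 ± 0.16. The fifth, the cytosolic DNA sensor AIM2, had 0, 6 and 0 counts in Empty and 14, 25 and 15 in LINC00862 (3.17 ± 1.12, adjusted p = 0.0326), and was named after its values were seen. RNF135 encodes a ligase that activates RIG-I. Of 12 other receptor and JAK-STAT genes, IRF2 was lower (-0.96 ± 0.20), IRF2BP2, STAT3 and IL10RB were higher (1.45 ± 0.13, 0.79 ± 0.20 and 0.65 ± 0.17) and 8 were not called. These shares, 8.33% lower and 25% higher, were below those of all genes tested.

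A second list of 42 interferon-stimulated genes outside the members held 19 lower, 13 higher and 10 not called genes, with a median log2 fold change of -0.61. The shares were 45.2% lower and 31.0% higher, against 29.8% and 34.4% of all genes tested. The lowest were EPSTI1 (-4.20 ± 0.27) and the chemokines CCL5 and CXCL10, which attract T cells. CCL5 had 12.6, 16.0 and 16.7 FPKM in Empty and 0.892, 1.10 and 0.913 FPKM in LINC00862, a change of -3.78 ± 0.23. CXCL10 had 2.56, 2.51 and 1.59 FPKM in Empty and 0.245, 0.189 and 0.224 FPKM in LINC00862, a change of -3.13 ± 0.37. Both chemokines were far lower in every LINC00862 library. Among the highest were LAMP3 (4.11 ± 0.25) and ADAR (2.26 ± 0.26), the RNA-editing enzyme that limits MDA5 activation. ADAR had 19.5, 10.8 and 11.8 FPKM in Empty and 64.0, 74.1 and 39.3 FPKM in LINC00862.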

How the data were processed

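Polyadenylated RNA was sequenced from 6 libraries. Raw read counts and FPKM values, both per gene and library, are what the authors deposited. Per the submitters' processing notes, cutadapt 1.9, HISAT2 2.0.4, UMI-tools, StringTie 1.3.4d, DESeq2 and edgeR were used with hg38. The kit marks strand, but whether counting used it, and how molecular identifiers were collapsed, is not given in the sources used here, and either could shift counts of overlapping or abundant genes.

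Counts were fitted across the whole table with edgeR 4.0.16 in R 4.3.3 (filterByExpr, TMM, quasi-likelihood test, Benjamini-Hochberg adjustment over 20741 genes, false discovery rate 0.05). Levels are FPKM, which the authors scaled to mapped fragments only, and log2 fold changes are from the fit with standard errors derived from the test statistic. The 3 libraries per group limit the precision. Alternatives were DESeq2 1.42.0, limma-trend 3.58.1 on log2(FPKM + 1) and log2(FPKM + 0.1), other scalings and filters, a stricter false discovery rate of 0.01, a replicate block and leaving out each library. Members, roles and other lists were chosen with earlier results of these data known. Values per library are given for every receptor, sensor and transcription factor and for the 10 lowest and 10 highest called effectors with a mean of at least 1 FPKM in a group. Of other lists, the 3 lowest and 3 highest called genes are named, except those not reported here. Promoters are from RefSeq (GRCh38.p14).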

Additional observations from a re-analysis of the deposited data

How the results depend on the processing

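The counts of members called lower and higher, in all, at 2-fold or more and among effectors, stayed within 1.5 times of the reported value in every alternative run. Of the 43 called members, 37 were called in the same direction in all 14 alternatives. The other 6 (IFI16, IFNAR2, IRF9, OAS1, PLSCR1 and XAF1) lost the call in 22 values, with 0 reversed. Upper quartile scaling turned the sign of 4 genes that were not called, to 0.153 for DTX3L, 0.0912 for IRF1, 0.0428 for IRF3 and 0.0802 for IRF7. With a single library left out in turn, DTX3L ranged from -0.146 to 0.115, IRF1 from -0.219 to 0.0209 and IRF3 from -0.341 to 0.0469. The cause was not tested. Among genes not called, 21 values in 9 genes passed the threshold in an alternative.

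Replicate numbers were not taken as pairs (correlations of -0.0489, -0.0254 and -0.00737 between same-numbered libraries). The replicate block gave 32 members lower and 11 higher. Members at under 1 FPKM, such as TLR3 and XAF1, rest on fewer counts than the others.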
